A study of Mus musculus with 34 samples.

Results

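Chemokines are small secreted proteins that draw leukocytes along a gradient, and their receptors are G protein-coupled receptors on the cells that respond. All genes were taken whose symbol begins with Ccl, Cxcl, Cx3cl, Xcl, Ccr, Cxcr, Cx3cr, Xcr or Ackr followed by a number and at most 1 letter. These were 60 of the 32098 genes listed, made up of 38 ligands, 18 signalling receptors and 4 atypical receptors. The rule itself used no measured value, but it was chosen with earlier results of these data known. Ccr1l1 and Ccrl2 were left out by the symbol pattern.

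They were measured by RNA-seq in visceral fat, in its stromal vascular fraction (SVF), the pellet of non-fat cells that remains after collagenase has released the floating adipocytes. The mice were male C57BL/6J that carried no engineered allele in the labels. From 6 weeks of age they received either a high fat diet (HFD) with 60% of its energy as fat, or a control diet (CHOW, 1 of 2 formulas, with no statement of which mouse had which), and all were fasted for 6 h before collection. The 34 libraries came after 8 weeks on the diet (4 CHOW and 6 HFD, aged 14 weeks), after 20 weeks (5 CHOW and 6 HFD, aged 26 weeks) and after 34 weeks (7 CHOW and 6 HFD, aged 40 weeks). Each time point was its own RNA-seq experiment, so weeks on diet, age and experiment cannot be told apart. The labels number the libraries as replicates without naming the animal, and p-values measure the spread between these libraries, which may in part be technical.

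In fat, CCL2 and its receptor CCR2 are best known for bringing monocytes in from the blood, where they become macrophages. CXCL1, CXCL2, CXCL3 and CXCL5 act through CXCR2 on neutrophils, CXCL9 to CXCL11 act through CXCR3 on activated T cells, and CCL11, CCL24 and CCL26 act through CCR3 on eosinophils. Atypical receptors bind chemokines without the usual signal and take them out of circulation. Many inflammatory chemokine genes are induced within hours by NF-kB, a transcription factor set off by danger signals and cytokines. Others, such as Cxcl12 and Ccl11, is made steadily by stromal cells.

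The deposited values are TPM, a share of transcripts corrected for transcript length, which sum to 1000000 in each library. Of the 60 genes, 30 reached 1 TPM in every library, 18 had a mean of at least 100 TPM in some group, and 7 stayed below a mean of 1 TPM in all 6 groups. Markers of the SVF were present, as macrophage Csf1r reached at least 145.5 TPM and fibroblast Dcn at least 1322 TPM in every library. In bulk RNA, fewer cells of a type and less RNA per cell cannot be told apart. Libraries that stood apart were HFD replicate 3 at 8 weeks, with 117775 TPM of seminal vesicle transcripts, HFD replicate 6 at 8 weeks, with 267887 TPM of erythroid transcripts, HFD replicate 5 at 20 weeks, with 11813 TPM of germ cell transcripts, and CHOW replicate 2 at 20 weeks, with 1319 TPM of neutrophil marker transcripts. CHOW replicate 3 at 8 weeks, with 1929 TPM of neutrophil marker transcripts, was not among these 4 and stayed in the fit without them. At 34 weeks, HFD replicates 1 and 2 had 4796 and 5169 TPM of germ cell transcripts. At 34 weeks, CHOW replicates 5, 6 and 7 had 2531, 12003 and 3385 TPM of adipocyte marker RNA, against 95.2 to 290 TPM on HFD. Tests were run with limma on log2(TPM + 1), a scale that understates changes of low genes, with Benjamini-Hochberg adjustment over all genes tested. A gene was called at an adjusted p below 0.05. At 8 and 20 weeks 53 of the 60 genes passed the filter on low values, and 45 passed at 34 weeks.

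Ligand RNA was dominated by a few monocyte and neutrophil attractants, and receptor RNA was far lower. The summed level of all 38 ligands was 7928 ± 3002 TPM (SD, n = 4) on CHOW and 7261 ± 2128 TPM (SD, n = 6) on HFD at 8 weeks. At 20 weeks it was 22945 ± 2715 TPM (SD, n = 5) on CHOW and 17509 ± 4609 TPM (SD, n = 6) on HFD. The highest of the 8 week libraries had 12199 TPM on CHOW and 9934 TPM on HFD, and the lowest of the 20 week libraries had 18994 TPM on CHOW and 12109 TPM on HFD, so neither diet's libraries overlapped between the times. At 34 weeks, in a table made separately and not tested against the others, the sums were 6696 ± 2022 TPM (SD, n = 7) and 6708 ± 1197 TPM (SD, n = 6). The signalling receptors summed to between 289 TPM (HFD at 20 weeks) and 482 TPM (CHOW at 8 weeks) as group means.

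Ccl2, Ccl7, Ccl3, Ccl4, Cxcl1 and Cxcl2 made up most of the ligand sum. They are the 6 genes with the highest means on CHOW at 20 weeks, so the choice favours their share at that time. Ccl6, not among them, ranked 3 on CHOW at 8 weeks (1035 TPM) and 1 on CHOW at 34 weeks (1360 TPM). The share of the 6 was 63.7% ± 5.8 (SD, n = 4) and 66.2% ± 3.2 (SD, n = 6) on CHOW and HFD at 8 weeks, 81.7% ± 4.5 (SD, n = 5) and 83.2% ± 3.9 (SD, n = 6) at 20 weeks, and 52.6% ± 6.0 (SD, n = 7) and 58.9% ± 9.3 (SD, n = 6) at 34 weeks. The highest receptor levels were those of Cxcr4, the receptor for CXCL12, with group means from 96.7 to 252 TPM, and of the atypical Ackr3, which also binds CXCL12, from 102 to 191 TPM. Ccr1, Ccr2 and Ccr7 were also well detected, with highest group means of 89.5, 70.2 and 38.0 TPM. Ccl20, Ccl27b, Ccl28, Cxcl15, Cxcl17, Cxcr1 and Ccr10 were those with a mean below 1 TPM in all 6 groups.

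**Figure D1:**
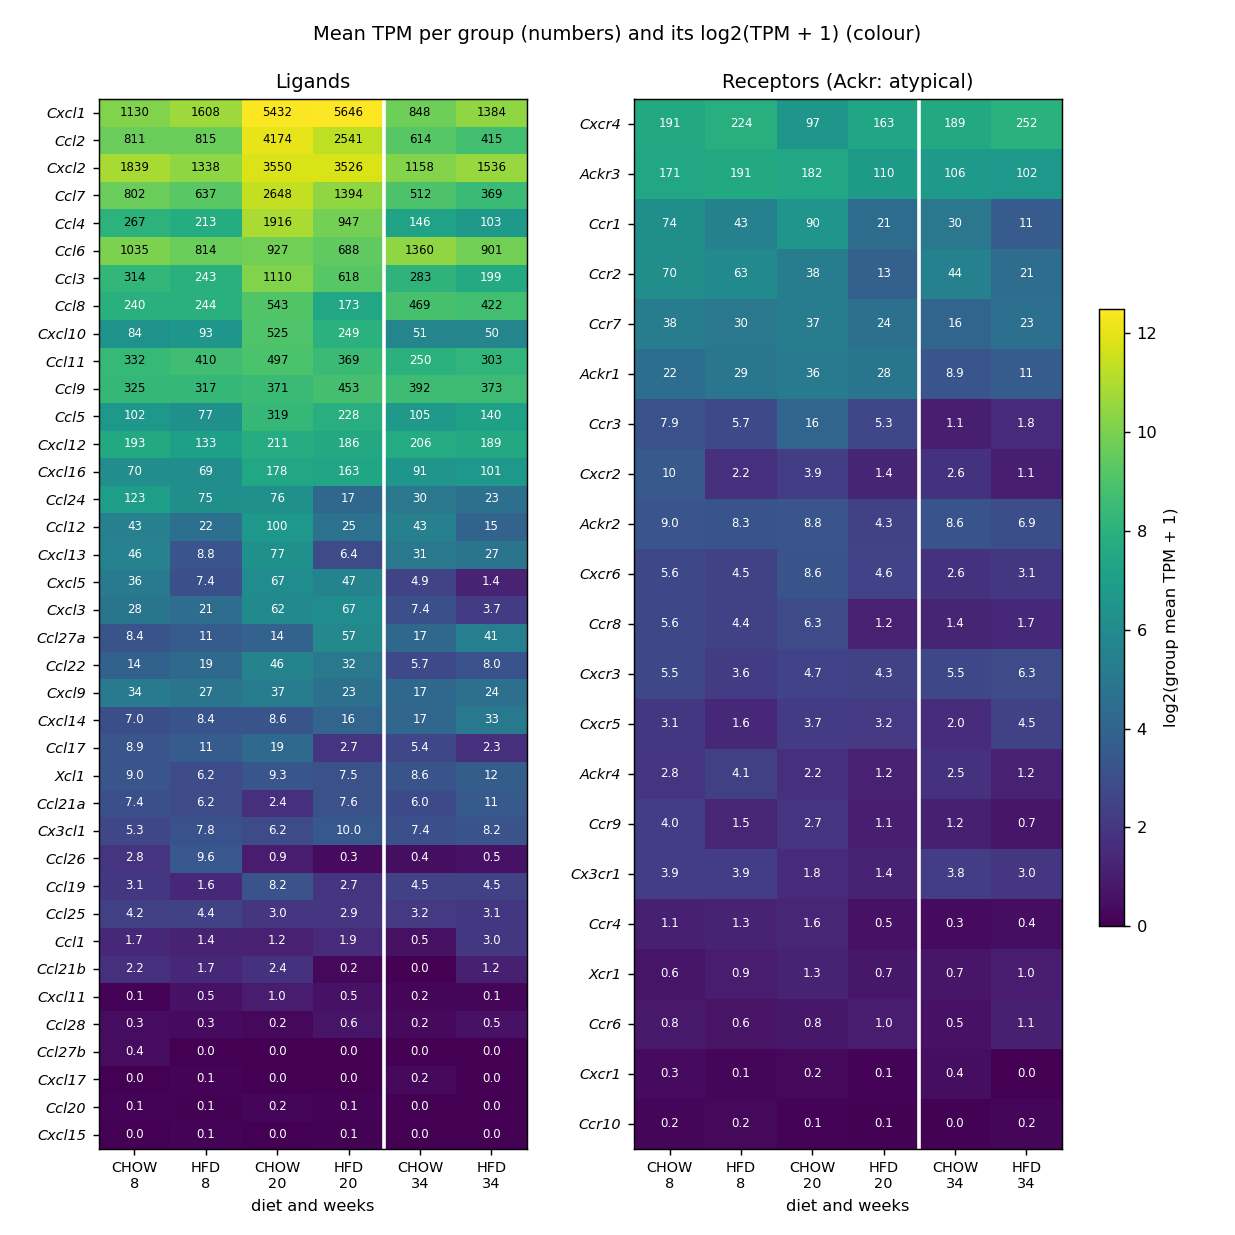
Group mean TPM of the genes, written in each cell, with the colour giving log2(group mean TPM + 1), for ligands (left) and receptors (right) in the 6 diet and time groups. The white line separates the 34 week table, and Cxcl1 stands at the top with 5432 and 5646 TPM at 20 weeks on CHOW and HFD.

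The genes lie in clusters. On GRCm38, 14 are on chromosome 11, 13 on chromosome 9, 11 on chromosome 5, 7 on chromosome 1, 5 on chromosome 4 and 4 on chromosome 8. The chromosome 11 group holds Ccl2 (82035571 to 82037453) and its neighbours Ccl7 (82045712 to 82047525), Ccl11, Ccl12 and Ccl8, and further on Ccl5, Ccl9, Ccl6, Ccl3 and Ccl4 (83662584 to 83664683). On chromosome 9 lie Ccr1 (123962124 to 123968692), Ccr3 (124021972 to 124031689) and Ccr2 (124101950 to 124113557), with Ccr9, Cxcr6 and Xcr1 just before them. On chromosome 5, Cxcl5, Cxcl3, Cxcl15, Cxcl1 and Cxcl2 lie together, Cxcl9, Cxcl10 and Cxcl11 form another group, and Ccl24 neighbours Ccl26.

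The promoter window (250 bases before to 50 after the start) was held for 45 of the 60 genes in a RefSeq table for GRCm38.p6. It was searched on both strands for a core of the NF-kB site, GGGA and TTCC with any 2 bases between them. Of 32851 such windows of all genes, 482 (1.47%) held it, and 6 of the 45 genes had at least 1, namely Cxcl1, Cxcl2, Cxcl3, Cxcl10, Ccl1 and Ccr3. The first 4 are shown because they are the 4 ligands on chromosome 5 that were both matched to a window with the motif and called in a comparison of 20 with 8 weeks. The windows are chr5:90890995-90891294 (plus strand) for Cxcl1, chr5:90903649-90903948 (plus) for Cxcl2, chr5:90785851-90786150 (plus) for Cxcl3 and chr5:92348840-92349139 (minus) for Cxcl10. Each runs 5′ to 3′ on the strand of its gene, with the motif in capitals together with any further base that a match on the other strand covers.
Cxcl1: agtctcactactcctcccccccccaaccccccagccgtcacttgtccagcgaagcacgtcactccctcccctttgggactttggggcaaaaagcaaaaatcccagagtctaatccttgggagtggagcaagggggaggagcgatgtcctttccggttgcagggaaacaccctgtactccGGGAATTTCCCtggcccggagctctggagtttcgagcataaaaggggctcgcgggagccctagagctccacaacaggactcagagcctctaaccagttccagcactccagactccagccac
Cxcl2: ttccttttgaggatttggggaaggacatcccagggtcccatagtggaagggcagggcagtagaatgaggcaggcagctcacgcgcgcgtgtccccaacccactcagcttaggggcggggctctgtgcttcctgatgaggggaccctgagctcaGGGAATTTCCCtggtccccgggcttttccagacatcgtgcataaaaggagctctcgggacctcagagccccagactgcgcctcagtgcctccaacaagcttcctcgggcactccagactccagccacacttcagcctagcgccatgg
Cxcl3: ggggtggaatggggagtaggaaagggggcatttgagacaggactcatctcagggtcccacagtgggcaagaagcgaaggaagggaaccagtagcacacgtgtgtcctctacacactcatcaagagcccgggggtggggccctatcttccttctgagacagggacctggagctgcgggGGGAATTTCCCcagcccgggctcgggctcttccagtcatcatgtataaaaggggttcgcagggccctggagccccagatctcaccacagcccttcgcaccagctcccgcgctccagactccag
Cxcl10: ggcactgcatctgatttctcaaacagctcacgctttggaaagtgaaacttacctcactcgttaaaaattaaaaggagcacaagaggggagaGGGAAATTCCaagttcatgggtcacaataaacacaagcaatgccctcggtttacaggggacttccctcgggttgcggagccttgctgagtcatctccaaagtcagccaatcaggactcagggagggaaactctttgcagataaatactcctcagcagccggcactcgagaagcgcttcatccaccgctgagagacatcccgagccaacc
The Cxcl1, Cxcl2 and Cxcl3 windows held the same 11 base run, beginning at positions -71, -97 and -73 from the start. In Cxcl10 the motif began at position -159. Among the other ligands called higher from 8 to 20 weeks, Ccl2, Ccl4, Ccl5, Ccl7, Cxcl5 and Cxcl16 had no window to search. The windows of Ccl3, Ccl22 and Ccl27a held no match. A match of letters is not evidence of binding, and no binding was measured here.

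Between 8 and 20 weeks 8 of the 33 ligands tested rose on both diets. On CHOW 9 of the 53 genes tested were called and all 9 were ligands that rose, where 0.613% of the 16808 genes tested were called in either direction and 0.458% were called higher. They were Ccl2, Ccl3, Ccl4, Ccl5, Ccl7, Ccl22, Cxcl1, Cxcl10 and Cxcl16. On HFD 12 ligands rose and 9 genes fell, where 8.78% of all genes were called, 6.12% higher and 2.65% lower. The share of all genes called higher on both diets was not counted, and it cannot exceed the 0.458% on CHOW. The median log2 fold change of the 53 was 0.24 on CHOW and 0.05 on HFD, beside -0.09 and 0.09 over all genes tested. No receptor was called higher on either diet.

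The monocyte attractants stood among the highest. Ccl2, the main ligand of CCR2, had 1030, 823, 801 and 589 TPM in the 4 CHOW libraries at 8 weeks and 3149, 2958, 5181, 5194 and 4386 TPM in the 5 at 20 weeks. On HFD it ranged from 418 to 1052 TPM (median 822 TPM) at 8 weeks and from 1469 to 4736 TPM (median 2243 TPM) at 20 weeks. All 20 week libraries lay above all 8 week libraries on each diet. The log2 fold change was 2.35 (SE 0.33, limma adjusted p = 0.00146) on CHOW and 1.55 (SE 0.28, adjusted p = 0.00144) on HFD. Ccl7, which shares CCR2 and lies next to Ccl2, had 1037, 848, 782 and 541 TPM on CHOW at 8 weeks and 2292, 2288, 2762, 3033 and 2867 TPM at 20 weeks. On HFD it went from a median of 606 TPM (375 to 938 TPM) to a median of 1229 TPM (962 to 2451 TPM). These libraries did not overlap between the times either, and the log2 fold change was 1.75 (SE 0.26, adjusted p = 0.00291) on CHOW and 1.09 (SE 0.23, adjusted p = 0.00424) on HFD.

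CCL3, CCL4 and CCL5 attract monocytes, macrophages and T cells, with CCR1 among the receptors of CCL3 and CCL5. Ccl4 had the highest log2 fold change of the 53 genes on CHOW. Its libraries had 276, 377, 350 and 65.8 TPM at 8 weeks and 1414, 1435, 1927, 2355 and 2450 TPM at 20 weeks on CHOW, without overlap. On HFD it ranged from 47 to 457 TPM (median 205 TPM) at 8 weeks and from 333 to 1415 TPM (median 1043 TPM) at 20 weeks, where the lowest 20 week library lay below the highest 8 week library. The log2 fold change was 3.07 (SE 0.56, adjusted p = 0.0141) on CHOW, lost without CHOW 8 week replicate 4 (adjusted p = 0.072), and 2.27 (SE 0.48, adjusted p = 0.00485) on HFD. For Ccl3, CHOW libraries had 363, 339, 412 and 141 TPM at 8 weeks and 919, 955, 1009, 1253 and 1413 TPM at 20 weeks. Its HFD libraries spanned 114 to 432 TPM at 8 weeks and 440 to 880 TPM at 20 weeks. Both diets were free of overlap, with log2 fold changes of 1.91 (SE 0.33, adjusted p = 0.00914) and 1.42 (SE 0.28, adjusted p = 0.00308). Ccl5, a product of T and NK cells as well as macrophages, had 112, 91.0, 132 and 73.1 TPM on CHOW at 8 weeks and 184, 248, 357, 417 and 391 TPM at 20 weeks. It rose by 1.61 on the log2 scale on CHOW (SE 0.29, adjusted p = 0.0141) and by 1.51 on HFD (SE 0.25, adjusted p = 0.000644). The CHOW call on Ccl5 was lost without CHOW 8 week replicate 4 or CHOW 20 week replicate 4 or 5 (adjusted p up to 0.0828).

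The neutrophil attractants Cxcl1, Cxcl2, Cxcl3 and Cxcl5 of chromosome 5 were called higher on HFD. On CHOW the calls on Cxcl2 and Cxcl5 depended on a single 8 week library and on the processing. Cxcl1 had 733, 767, 2356 and 666 TPM on CHOW at 8 weeks, 3419, 4615, 6520, 5843 and 6765 TPM on CHOW at 20 weeks, and medians of 1666 TPM (736 to 2273 TPM) and 5476 TPM (3435 to 9329 TPM) on HFD. It did not overlap between the times on either diet and rose by 2.44 (SE 0.38, adjusted p = 0.00346) on CHOW and 1.80 (SE 0.32, adjusted p = 0.00135) on HFD, on the log2 scale. CHOW replicate 3 at 8 weeks carried the high values of all 4 genes. Cxcl2 had 1061, 1201, 4010 and 1085 TPM on CHOW at 8 weeks and 3364, 4163, 3119, 3424 and 3680 TPM at 20 weeks. Cxcl5 had 3.70, 6.88, 129 and 3.11 TPM and then 39.3, 80.1, 68.5, 114 and 33.2 TPM. On CHOW neither was called, with log2 fold changes of 1.20 (SE 0.36, adjusted p = 0.128) for Cxcl2 and 2.38 (SE 0.81, adjusted p = 0.197) for Cxcl5. Without CHOW 8 week replicate 3 both were called, at 1.66 (adjusted p = 0.00987) and 3.53 (adjusted p = 0.00902). Cxcl3 was called on CHOW neither with that library (1.42, adjusted p = 0.27) nor with any 1 library left out (lowest adjusted p = 0.0909). With sample quality weights Cxcl2, Cxcl3 and Cxcl5 were called on CHOW with all libraries kept, and Cxcl2 also with median-ratio scaling. Over all genes tested those settings took the calls on CHOW from 103 to 1659 and to 417. The neutrophil marker sum spanned 82.7 to 1929 TPM over the 4 CHOW libraries at 8 weeks, Ly6g was at 0 in 20 of the 34 libraries, and the part of neutrophil RNA in these values was not tested.

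On HFD the log2 fold changes from 8 to 20 weeks were 1.51 for Cxcl2 (SE 0.31, adjusted p = 0.00354), 1.79 for Cxcl3 (SE 0.48, adjusted p = 0.023) and 2.64 for Cxcl5 (SE 0.70, adjusted p = 0.022). Cxcl2 ran from 500 to 2121 TPM (median 1312 TPM) at 8 weeks and from 2857 to 4397 TPM (median 3345 TPM) at 20 weeks, without overlap. Cxcl3 ran from 2.97 to 44.4 TPM and then from 32.3 to 126 TPM, and Cxcl5 from 0.959 to 18.1 TPM and then from 18.5 to 110 TPM. The Cxcl3 libraries overlapped and the Cxcl5 libraries did not. The Cxcl5 call moved to an adjusted p of 0.0503 without HFD 8 week replicate 3. Cxcr2, the receptor of these ligands, was low, with group means from 1.07 TPM (HFD at 34 weeks) to 10.1 TPM (CHOW at 8 weeks).

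Of the interferon-induced ligands of CXCR3, Cxcl10 rose and Cxcl9 was not called. Cxcl10 had 85.2, 81.9, 79.7 and 88.5 TPM on CHOW at 8 weeks and 402, 352, 688, 621 and 560 TPM at 20 weeks, a log2 difference of 2.59 (SE 0.43, adjusted p = 0.00714) with no overlap. On HFD it went from a median of 85 TPM (29.7 to 175 TPM) to a median of 277 TPM (76.5 to 422 TPM), with overlap, by 1.40 (SE 0.37, adjusted p = 0.0222) on the log2 scale. This HFD call was lost without HFD 20 week replicate 4 (adjusted p = 0.0518). Cxcl9 had log2 fold changes of 0.21 (95% interval -0.62 to 1.04) and -0.23 (95% interval -0.94 to 0.48) on CHOW and HFD. Cxcl11, counted among the 38 ligands, is annotated as a polymorphic pseudogene. Its highest group mean was 1.01 TPM, and it was called on neither diet. Cxcl10 overlaps Art3 on the opposite strand, and the library kit kept strand.

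Cxcl16, a membrane-bound ligand that also acts as a scavenger receptor, had 58.9, 69.5, 91.0 and 60.9 TPM on CHOW at 8 weeks and 120, 154, 212, 210 and 194 TPM at 20 weeks. On HFD it spanned 24.9 to 106 TPM and then 142 to 187 TPM. Neither diet's libraries overlapped, and the log2 fold change was 1.32 (SE 0.29, adjusted p = 0.0431) on CHOW and 1.37 (SE 0.25, adjusted p = 0.00161) on HFD. Ccl22, a ligand of CCR4 made by dendritic cells and macrophages, had 12.0, 18.9, 9.06 and 14.1 TPM on CHOW at 8 weeks and 34.9, 37.8, 51.7, 61.5 and 46.6 TPM at 20 weeks (log2 fold change 1.72, SE 0.39, adjusted p = 0.0449). On HFD the log2 fold change of Ccl22 was 0.73 (SE 0.33, adjusted p = 0.159). The CHOW call on Cxcl16 was lost without any 1 of CHOW 8 week replicates 1, 2 and 4 and CHOW 20 week replicates 3, 4 and 5 (adjusted p up to 0.173). That on Ccl22 was lost without any 1 of the 4 CHOW 8 week libraries or CHOW 20 week replicates 3, 4 and 5 (adjusted p up to 0.145).

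**Figure D2:**
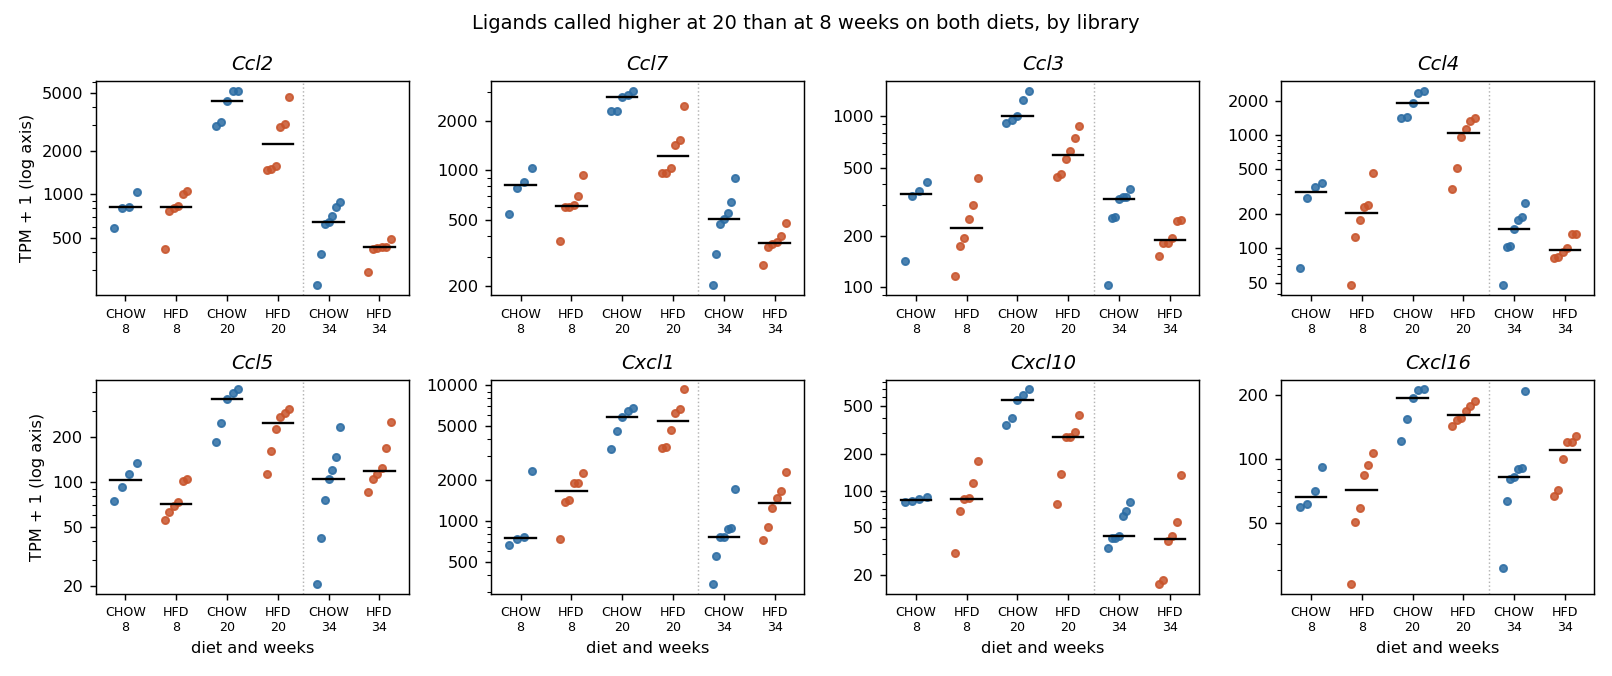
TPM + 1 on a log axis in every library for the 8 ligands called higher at 20 than at 8 weeks on both diets, with a bar at the group median, CHOW in blue and HFD in red. Libraries of 20 weeks lie above those of 8 weeks for Ccl2, Ccl7, Ccl3, Ccl5, Cxcl1 and Cxcl16 on both diets, and the 34 week groups right of the dotted line come from a separate table.

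Cxcl12, Ccl6, Ccl9 and Ccl11 were not called between 8 and 20 weeks on either diet. Cxcl12, which holds stem cells and lymphocytes through CXCR4, had log2 fold changes of 0.15 (95% interval -0.25 to 0.54) on CHOW and 0.48 (95% interval 0.14 to 0.81, adjusted p = 0.0699) on HFD. Ccl6 and Ccl9, ligands of CCR1, were at group means of 688 to 1360 TPM and 317 to 453 TPM and were called in none of the 6 comparisons. Ccl11, the eosinophil attractant of stromal cells, was at 250 to 497 TPM and was not called either. Their 95% intervals from 8 to 20 weeks on CHOW ran from -0.93 to 0.51 for Ccl6, from -0.52 to 0.85 for Ccl9 and from -0.03 to 1.26 for Ccl11. On HFD they ran from -0.95 to 0.29, from -0.07 to 1.12 and from -0.77 to 0.34. Cxcr4 had 154, 138, 226 and 246 TPM on CHOW at 8 weeks and 113, 111, 92.5, 86.8 and 80.5 TPM at 20 weeks. These did not overlap, and the log2 fold change of -0.95 (SE 0.27) had an adjusted p of 0.109.

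On HFD 9 genes fell between 8 and 20 weeks, 3 of them signalling receptors, 3 atypical receptors and 3 ligands. Ccr2, the monocyte receptor, ranged from 35.6 to 96.1 TPM (median 60.9 TPM) at 8 weeks and from 10.3 to 17.1 TPM (median 13 TPM) at 20 weeks. The groups did not overlap and the log2 fold change was -2.11 (SE 0.28, adjusted p = 7.29e-05). On CHOW Ccr2 had a log2 difference of -0.98 (SE 0.33, adjusted p = 0.192). Ccl24, an eosinophil attractant made by tissue macrophages, ranged from 46.1 to 98.9 TPM (median 74.5 TPM) and then from 11.4 to 23.9 TPM (median 16.7 TPM), also without overlap (log2 fold change -2.06, SE 0.28, adjusted p = 7.47e-05). Its neighbour Ccl26 was between 4.01 and 20.4 TPM in the 6 HFD libraries at 8 weeks, and at 20 weeks it was listed at 0 in all HFD libraries but replicate 4 (1.73 TPM). Ccl26 fell by 2.98 on the log2 scale (SE 0.46, adjusted p = 0.00031).

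Ccr1 fell by 1.01 on HFD between 8 and 20 weeks (SE 0.19, adjusted p = 0.00188), and Ccr8, a receptor of regulatory and type 2 T cells, fell by 1.27 (SE 0.34, adjusted p = 0.0233), both on the log2 scale. Ccl17, the other ligand of CCR4, fell by 1.58 (SE 0.45, adjusted p = 0.034), and the scavengers Ackr2, Ackr3 and Ackr4 fell by 0.81, 0.83 and 1.17 on the log2 scale (adjusted p = 0.0312, 0.0499 and 0.0232). Ccr1 ranged from 28.3 to 60.2 TPM and then from 16 to 29.0 TPM, with 1 overlapping pair of values. Leaving out single HFD libraries ended the calls on Ackr3 (7 of 12 libraries, adjusted p up to 0.112), Ccl17 (6 libraries, up to 0.0796), Ackr2 (5 libraries, up to 0.0781), Ccr8 and Ackr4 (8 week replicate 5 or 20 week replicate 3, up to 0.0612 and 0.0614). For Ackr3 these were 8 week replicates 1, 4, 5 and 6 and 20 week replicates 1, 2 and 3. For Ccl17 they were 8 week replicates 1, 5 and 6 and 20 week replicates 1, 2 and 3, and for Ackr2 8 week replicates 3, 5 and 6 and 20 week replicates 2 and 3. Ccl27a, a ligand of CCR10, rose by 1.82 on the log2 scale on HFD (SE 0.45, adjusted p = 0.0152), from 4.53 to 23.1 TPM at 8 weeks to 16.5 to 178 TPM at 20 weeks. It has near-identical copies and overlaps Il11ra1, so its share of reads is uncertain. Its highest HFD libraries at 20 weeks, replicate 5 (178 TPM) and replicate 4 (77.1 TPM), were also those with most germ cell RNA (11813 and 2741 TPM), as were replicates 1 and 2 at 34 weeks (102 and 79.5 TPM of Ccl27a, 4796 and 5169 TPM of germ cell RNA). The call on Ccl27a was lost without the 4 libraries that stood apart (1.19, adjusted p = 0.0676), and the part of germ cell RNA was not tested.

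The changes from 8 to 20 weeks on CHOW and on HFD shared no libraries. They shared the estimate of spread and the same difference of experiment and age, so they were not independent of each other. Of the 53 genes, 23 had a positive log2 fold change on both diets, 11 a negative one on both, and 19 had opposite signs. The 8 ligands called higher on both made up 88.9% of the 9 on CHOW and 66.7% of the 12 on HFD. This overlap was not counted over all genes tested. No gene was called lower on CHOW.

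**Figure D3:**
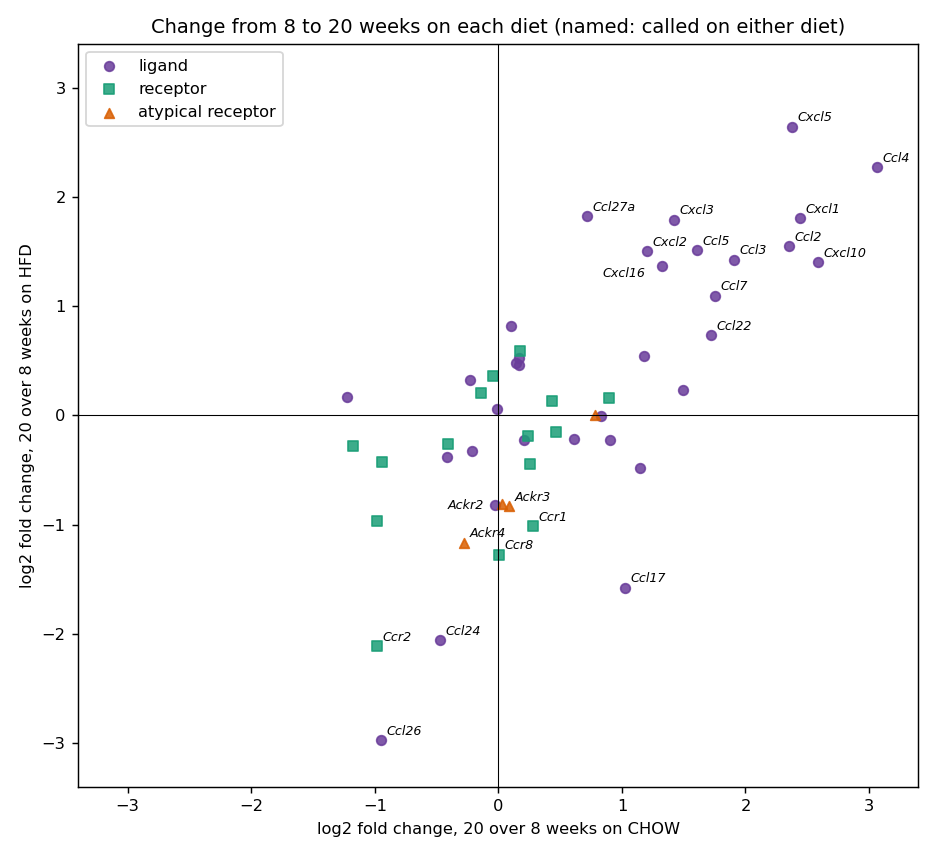
Log2 fold change from 8 to 20 weeks on CHOW (horizontal) and HFD (vertical) for the genes tested, as circles for ligands, squares for signalling receptors and triangles for atypical receptors, with names on those called on either diet. The named ligands in the upper right, such as Ccl4 at 3.07 and 2.27, rose, and Ccr2, Ccl24 and Ccl26 lie lowest on HFD.

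Other measures moved with the time comparison. An added set of induced cytokine genes held Il1a, Il1b, Il6, Tnf, Ifnb1 and Csf3. It had mean sums of 1838 and 1173 TPM at 8 weeks on CHOW and HFD, 3395 and 4274 TPM at 20 weeks, and 699 and 1058 TPM at 34 weeks. The CHOW mean at 8 weeks was raised by its highest library (600 to 5391 TPM). Medians on CHOW and HFD were 680 and 1271 TPM at 8 weeks, 2983 and 4024 TPM at 20 weeks, and 716 and 925 TPM at 34 weeks. Immediate early genes, which respond within minutes to tissue handling, had mean sums of 7127 and 9041 TPM at 8 weeks and 6711 and 8293 TPM at 20 weeks. At 34 weeks these sums were 9506 and 11465 TPM on CHOW and HFD. Adipocyte marker sums spanned 309 to 689 TPM on CHOW and 182 to 434 TPM on HFD at 8 weeks, and 152 to 310 TPM and 84.6 to 174 TPM at 20 weeks. None of the 5 adipocyte markers was called higher, 1 (Lep) was called lower on CHOW and 5 on HFD. With the adipocyte score as a covariate, 0 of the 9 calls on CHOW and 1 call on HFD (of 21) were made, at adjusted p values up to 0.437 for the 9 ligands on CHOW. Over all genes tested, that covariate took the calls from 103 to 19 on CHOW and from 1475 to 78 on HFD. On HFD all 5 mast cell markers rose and all 5 erythroid markers fell as well, with mast cell sums of 89.4 to 193 TPM and then 458 to 2064 TPM. Of 6 macrophage markers 2 rose on HFD, where the mean of their sum was 1305 TPM and then 2225 TPM, and none was called on CHOW, where it was 1243 TPM and then 1157 TPM. The germ cell sum had a mean of 253 TPM and then 2881 TPM on HFD, and none of its 6 genes was called. The part of any of these in the ligand changes was not tested. Without the 4 libraries that stood apart at 8 and 20 weeks, 12 genes were called on CHOW and 16 on HFD, and without CHOW 8 week replicate 4 the count on CHOW was 5. Over all genes tested these counts were 788, 1147 and 24. On HFD the calls lost without those 4 libraries were Ccl4 (adjusted p = 0.0505), Cxcl10 (0.0998), Cxcl3 and Cxcl5 (both 0.108), Ackr2 (0.0894) and Ccl27a.

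At 20 weeks several receptors and several ligands of CCR2, CCR3 and CCR4 were lower on HFD than on CHOW. Of the 53 genes 14 were called lower and 1 higher, where 4.99% of all genes tested were called lower, 9.32% higher and 14.3% in either direction. As shares of the 53 these were 26.4% lower and 1.89% higher. The median log2 fold change was -0.52 beside 0.08 over all genes tested, and 43 of the 53 were negative. In 10 of the 53, namely 9 of the 14 called lower and Ccl3, no HFD library reached the lowest CHOW library, which held for 3.69% of all genes tested.

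Ccr1, a receptor of monocytes, macrophages and neutrophils, had the lowest adjusted p of the 53. It was at 120, 81.2, 78.8, 92.9 and 74.6 TPM in the 5 CHOW libraries and between 16 and 29.0 TPM (median 19.5 TPM) in the 6 HFD libraries. The groups lay well apart, and the log2 fold change was -2.06 (SE 0.20, adjusted p = 2.72e-06). Ccr2 was at 68.3, 53.5, 23, 25.1 and 20.3 TPM on CHOW and between 10.3 and 17.1 TPM on HFD, without overlap (log2 fold change -1.31, SE 0.30, adjusted p = 0.00664). Ccr8 was at 4.72, 1.58, 6.76, 4.62 and 13.8 TPM on CHOW and between 0.28 and 1.84 TPM on HFD, with CHOW replicate 2 inside the HFD range (log2 fold change -1.56, SE 0.36, adjusted p = 0.00665).

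The eosinophil axis was lower on HFD in its receptor and in 1 of its ligands. Ccr3 was at 30.8, 9.84, 12.8, 11.8 and 14.0 TPM on CHOW and between 3.47 and 8.04 TPM on HFD, without overlap (log2 fold change -1.35, SE 0.40, adjusted p = 0.0304). Its call was lost without any 1 of CHOW replicates 1, 3, 4 and 5 and HFD replicates 2, 4 and 5 (adjusted p up to 0.0794). Ccl24 was at 72.7, 78.6, 76.4, 66.7 and 83.9 TPM on CHOW and between 11.4 and 23.9 TPM (median 16.7 TPM) on HFD. These were far apart, with a log2 difference of -2.13 (SE 0.29, adjusted p = 0.00012). Ccl11 had a log2 fold change of -0.54 (95% interval -1.12 to 0.04). The eosinophil markers Siglecf and Prg2 fell by 2.23 and 1.04 on the log2 scale at the same time (adjusted p = 0.000433 and 0.0268), their sum spanned 8.92 to 33.7 TPM on CHOW and 3.74 to 5.99 TPM on HFD with Epx included, and Epx was at 0 in 32 of the 34 libraries. The part of eosinophil RNA in these values was not tested.

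Ccl8 and Ccl12 showed larger differences than Ccl2 and Ccl7, their neighbours on chromosome 11. Ccl8, made by a subset of tissue macrophages, was at 739, 725, 432, 482 and 339 TPM on CHOW and between 92.3 and 415 TPM (median 136 TPM) on HFD. The highest HFD library, replicate 3, overlapped CHOW, and the log2 fold change was -1.79 (SE 0.40, adjusted p = 0.00581). Ccl12, a mouse relative of Ccl2, was at 88.8, 150, 65.7, 105 and 92.6 TPM on CHOW and between 14.8 and 48.8 TPM (median 20.6 TPM) on HFD, without overlap (log2 fold change -2.03, SE 0.43, adjusted p = 0.00387). Ccl7 was at 2288 to 3033 TPM on CHOW and 962 to 2451 TPM on HFD (log2 fold change -1.0, SE 0.24, adjusted p = 0.00882). Ccl2 had a log2 difference of -0.82 (SE 0.29, adjusted p = 0.0638), and its call was made without CHOW replicate 2 or HFD replicate 6 (lowest adjusted p = 0.0134). Ccl3, whose libraries did not overlap between the diets, had a log2 difference of -0.87 (SE 0.30, adjusted p = 0.0549), called without HFD replicate 3 (adjusted p = 0.046).

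Ccl17, Ccl19 and Cxcl13 were lower on HFD as well. Ccl17 was at 24.4, 9.75, 15.6, 15.4 and 27.5 TPM on CHOW and between 0.75 and 5.52 TPM on HFD, without overlap (log2 fold change -2.47, SE 0.47, adjusted p = 0.00193). Ccl19, which guides dendritic and T cells through CCR7, was at 7.22, 10.6, 9.03, 9.14 and 5.24 TPM on CHOW and between 0.515 and 4.83 TPM on HFD (log2 fold change -1.41, SE 0.35, adjusted p = 0.0107). Cxcl13, the B cell attractant, was at 44.7, 248, 13.4, 45.2 and 34.4 TPM on CHOW and between 2.23 and 9.86 TPM on HFD. Both were free of overlap, and Cxcl13 had a log2 difference of -2.86 (SE 0.76, adjusted p = 0.0174), which became -2.06 (adjusted p = 0.0798) without the 4 libraries that stood apart. Cxcl10 had a log2 difference of -1.23 (SE 0.39, adjusted p = 0.0405) and lost its call without any 1 of CHOW replicates 3, 4 and 5 and HFD replicates 1 and 2 (adjusted p up to 0.099). Ccr7 had a log2 fold change of -0.62 (95% interval -1.44 to 0.19). Ccl22, the other CCR4 ligand, was not called (-0.64, 95% interval -1.37 to 0.09), and Ccl21a, the other CCR7 ligand, had a positive value (1.27, 95% interval 0.20 to 2.35, adjusted p = 0.0991). Summed with its near-identical copy Ccl21b, the value of Ccl21a was 0.51 (limma adjusted p = 0.519).

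**Figure D4:**
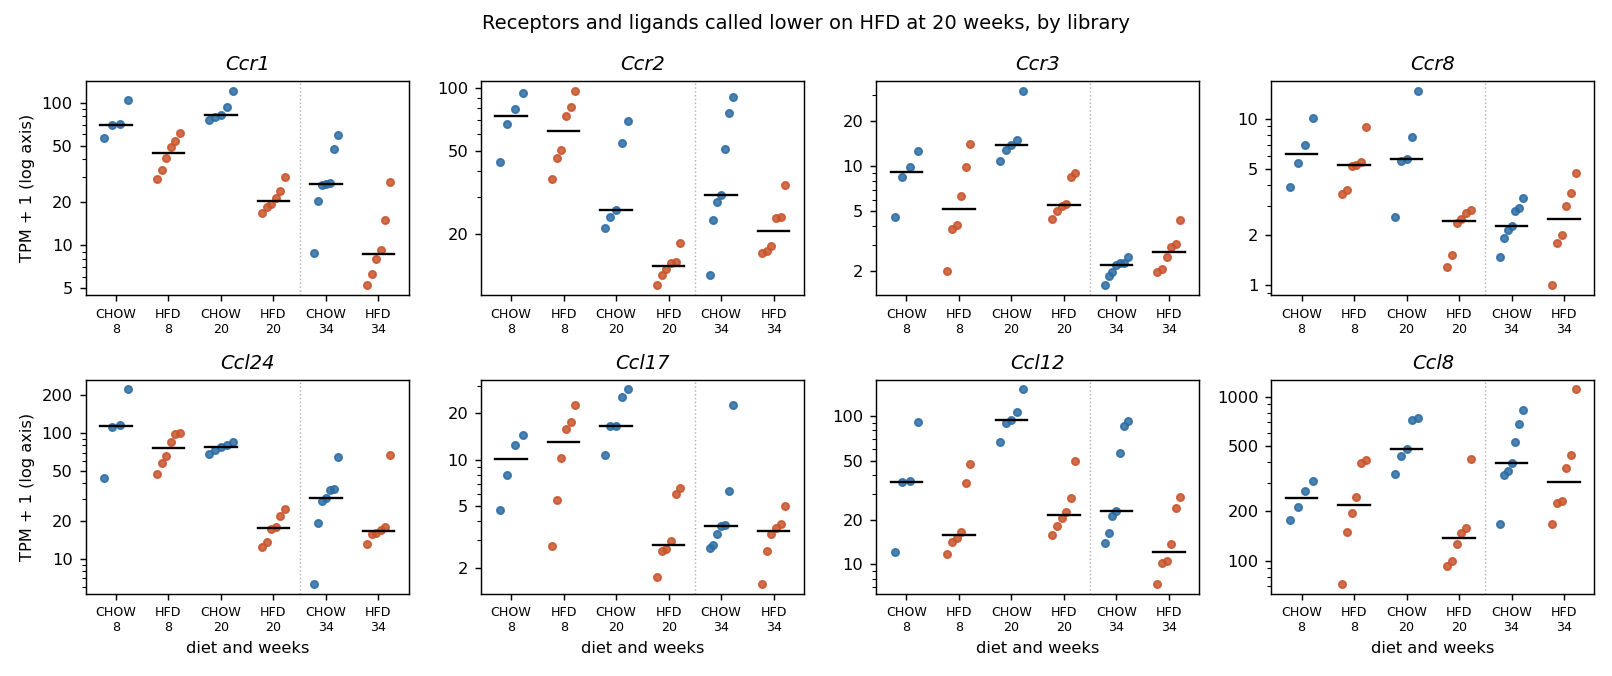
TPM + 1 on a log axis in every library for 4 receptors and 4 ligands called lower on HFD at 20 weeks, with a bar at the group median, CHOW in blue and HFD in red. At 20 weeks the diets are apart for all shown but Ccr8 and Ccl8, as for Ccr1 with 74.6 TPM as the lowest CHOW and 29.0 TPM as the highest HFD value.

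The scavengers Ackr2, which clears inflammatory CC chemokines, and Ackr3 had log2 fold changes of -0.88 (SE 0.24, adjusted p = 0.0201) and -0.83 (SE 0.27, adjusted p = 0.0465). Ackr2 was at 11.8, 6.05, 7.31, 11.4 and 7.48 TPM on CHOW and between 2.83 and 5.57 TPM on HFD, and Ackr3 at 213, 155, 219, 174 and 150 TPM and between 47.9 and 166 TPM. The Ackr2 libraries did not overlap, and the Ackr3 libraries did. The Ackr2 call was lost without CHOW replicate 1 or 4 (adjusted p up to 0.0644) and the Ackr3 call without any 1 of CHOW replicates 1, 3, 4 and 5 and HFD replicates 1, 2 and 3 (up to 0.111). Cxcl14, an attractant made by epithelial and stromal cells, was the only gene of the 53 called higher, with 4.69, 20.4, 4.94, 7.96 and 5.15 TPM on CHOW and 10.5 to 21.6 TPM (median 14.9 TPM) on HFD (log2 fold change 0.95, SE 0.31, adjusted p = 0.0439). CHOW replicate 2 lay within the HFD range. Without it the log2 fold change was 1.29 (adjusted p = 0.00206), and without any 1 of CHOW replicates 1, 3, 4 and 5 and HFD replicates 1, 2, 4 and 5 the call was lost (adjusted p up to 0.117). Cxcr4 had a log2 difference of 0.71 (SE 0.24, adjusted p = 0.0517) and was called without HFD replicate 6 (adjusted p = 0.016).

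**Figure D5:**
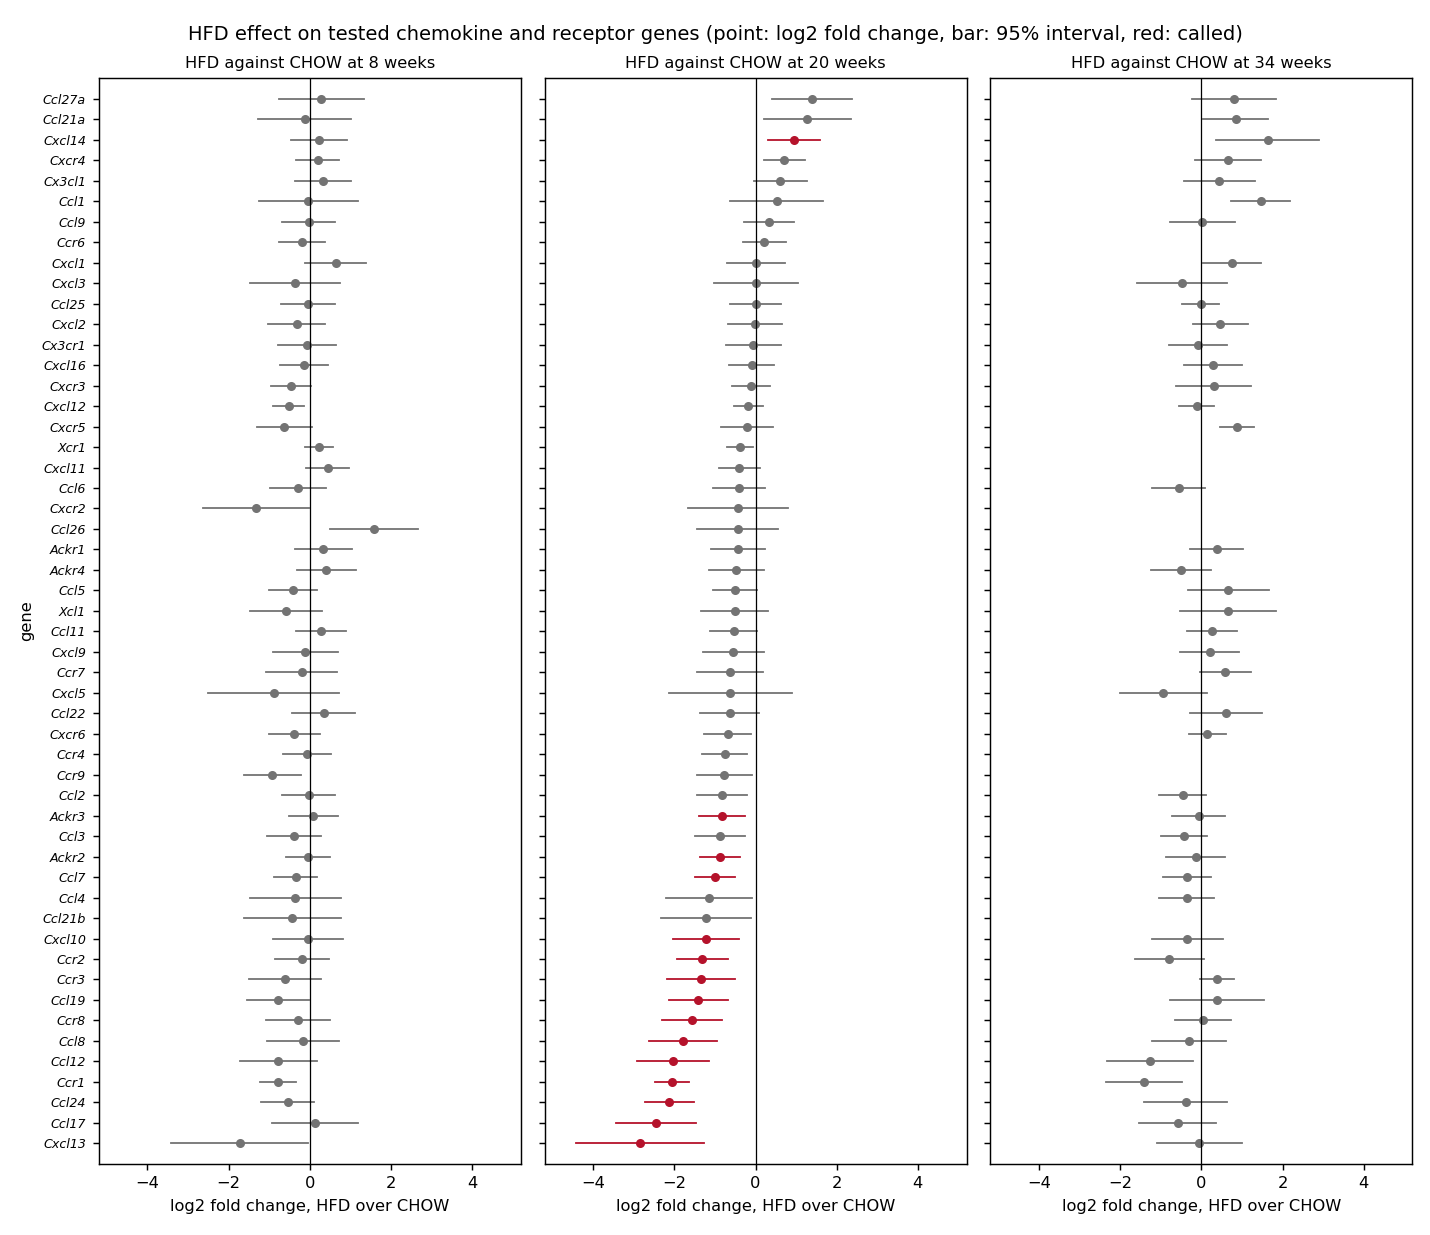
Log2 fold change of HFD over CHOW with its 95% interval for the genes tested at 8, 20 and 34 weeks, in the order of the 20 week values, with called genes in red. At 20 weeks 14 genes are called lower and Cxcl14 higher, and no gene is called at 8 or 34 weeks.

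Of 29 listed genes of chemokine receptor signalling, 7 were called higher on HFD at 20 weeks and 0 lower, with a list median log2 fold change of 0.25 beside 0.08 over all genes tested, of which 9.32% were called higher and 4.99% lower. They included Rgs1 and Rgs10, which shorten G protein signals (log2 fold change 1.39, adjusted p = 0.000391, and 0.99, adjusted p = 0.00413), and Gng2, a G protein subunit (1.04, adjusted p = 0.0209). Of 19 tested genes of other attractants, 2 were called lower, namely Dpp4, a protease that trims chemokines (-1.37, adjusted p = 0.00193), and the leukotriene receptor Ltb4r1 (-1.40, adjusted p = 0.00421). From 8 to 20 weeks on HFD, 5 of the 29 were called higher and 0 lower, and of the 19, 3 were higher and 2 lower, where 6.12% of all genes tested were called higher and 2.65% lower. On CHOW none of either list was called by limma from 8 to 20 weeks.

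Markers of several cell types moved with the HFD difference at 20 weeks. Macrophage Adgre1 and Cd68 rose by 1.38 and 1.43 on the log2 scale (2 of 6 macrophage markers, sum 816 to 1823 TPM on CHOW and 1680 to 2807 TPM on HFD), while Ccr1, Ccr2, Ccl8, Ccl12 and Ccl24 were lower. Of 4 dendritic cell markers only Cd209a was called, at -2.95 (adjusted p = 3.42e-07), and their sum spanned 91.5 to 122 TPM on CHOW and 25.5 to 38.8 TPM on HFD. All 5 mesothelial markers were lower (sum 174 to 582 TPM and 56.6 to 178 TPM), all 5 mast cell markers were higher (355 to 512 TPM and 458 to 2064 TPM) and all 5 erythroid markers were lower. Of the adipocyte markers 4 were lower and Lep was higher. The part of these in the chemokine values was not tested. With the adipocyte score as a covariate 8 genes were called, and without the 4 libraries that stood apart 18 were called. Over all genes tested these counts were 754 and 3392, beside 2405 in the main fit.

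At 8 weeks none of the 53 genes was called by limma, where 0.0238% of all genes tested were called, and 7 had an unadjusted p below 0.05 (1 higher and 6 lower), beside 9.7% of all genes (2.09% higher and 7.61% lower). Ccr1 had 69.7, 68.6, 104 and 55.6 TPM on CHOW and 28.3 to 60.2 TPM on HFD (log2 fold change -0.77, SE 0.21, adjusted p = 0.199). The groups overlapped only between the lowest CHOW and the highest HFD library. Ccl26 had 4.91, 0, 2.08 and 4.09 TPM on CHOW and 4.01 to 20.4 TPM on HFD (log2 fold change 1.59, SE 0.52, adjusted p = 0.302). Cxcl13 had the most negative value (-1.72, 95% interval -3.41 to -0.04, adjusted p = 0.508). Ccl2 had a log2 fold change of -0.022 (95% interval -0.67 to 0.63).

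At 34 weeks none of the 45 genes tested was called by limma, where 0.243% of all genes were called, and 7 had an unadjusted p below 0.05 (5 higher and 2 lower), beside 13.2% of all genes (9.69% higher and 3.53% lower). Ccr1 ranged from 7.88 to 58.7 TPM (median 25.7 TPM) on CHOW and from 4.25 to 26.6 TPM (median 7.66 TPM) on HFD, with overlap (log2 fold change -1.42, SE 0.44, adjusted p = 0.22). Ccl12 had -1.27 (SE 0.49, adjusted p = 0.303). Cxcl14 ranged from 1.44 to 67.5 TPM on CHOW and from 17.2 to 49.2 TPM on HFD (log2 fold change 1.63, SE 0.59, adjusted p = 0.274), and without CHOW replicate 4, the highest library, it was called (2.08, adjusted p = 0.0421). Cxcr5, the B cell receptor for CXCL13, had the lowest p of the 45, at 0.758 to 3.14 TPM on CHOW and 2.68 to 5.09 TPM on HFD (log2 fold change 0.88, SE 0.20, adjusted p = 0.104). Cd79a, a B cell marker, rose by 0.89 there (adjusted p = 0.0461), and the B cell sum spanned 24 to 39.9 TPM on CHOW and 44.5 to 80.9 TPM on HFD. Ccl1, a ligand of CCR8, had a median of 0 TPM on CHOW and 3.14 TPM on HFD (log2 fold change 1.46, SE 0.34, adjusted p = 0.115). Mast cell markers Cpa3 and Mcpt4 rose as well (2 of 5, sum 71.9 to 792 TPM on CHOW and 579 to 2048 TPM on HFD). Without the 3 adipocyte-rich CHOW libraries none of the 45 was called, and the calls over all genes went from 34 to 0. The part of adipocyte or mast cell RNA in these values was not tested.

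Whether the HFD difference changed between 8 and 20 weeks was tested as a diet by time interaction, over the same 53 genes. None was called by limma, where 0.297% of all genes were (0.161% positive and 0.137% negative), and 12 had an unadjusted p below 0.05, all with a negative interaction, beside 3.4% of all genes for negative ones. The lowest adjusted p was that of Ccr1, with -1.29 on the log2 scale (SE 0.29, adjusted p = 0.066), and it fell below the threshold without any 1 of CHOW 8 week replicate 3, HFD 8 week replicates 2 and 3, CHOW 20 week replicate 2 and HFD 20 week replicate 3 (down to 0.0275). Ccl17 (-2.60, SE 0.69, adjusted p = 0.128) and Ccl24 (-1.58, SE 0.43, adjusted p = 0.134) followed, and each passed without 1 library, HFD 8 week replicate 2 for Ccl17 (0.0248) and CHOW 8 week replicate 2 for Ccl24 (0.0412). So the HFD effects at 20 weeks were not shown to differ from those at 8 weeks.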

How the data were processed

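Total RNA of the SVF was sequenced from stranded poly(A) libraries in 3 experiments, 1 per time point. Per the labels and the study's methods, read quality was inspected by the authors (FastQC, MultiQC) before trimming in Trimmomatic and quantification of gencode M10 transcripts (mm10) in Salmon, and the authors deposited TPM per gene in 2 tables, with 21 libraries of 8 and 20 weeks in one and 13 of 34 weeks in the other. Tool versions were not given in the sources used here. DESeq2, which the authors ran on counts, was not used here. TPM keeps no depth, so no counting interval was given. Gene IDs were matched to symbols in gencode M21 (31791 of 32098), and 42 of the 60 genes had the same ID version there.

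Values were tested as log2(TPM + 1) with limma 3.58.1 in R 4.3.3 (empirical Bayes with a mean trend, two-sided), after keeping genes with at least 1 TPM in at least 4 libraries (8 and 20 weeks) or 6 libraries (34 weeks). All 21 libraries of 8 and 20 weeks shared 1 fit. The 34 week table was fitted alone, and no test crossed the tables. Adjustment was by Benjamini-Hochberg over all genes tested, and 95% intervals came from the same fits. The code was tested on simulated data. Genes were described in full when called in any of the 6 comparisons with a group mean of at least 5 TPM, or with a group mean of at least 100 TPM. The genes, lists and rules were chosen with earlier results of these data known. The added cytokine and immediate early lists and the fit without 4 libraries were chosen after seeing the data. A gene among those counted is not reported here by name.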

Additional observations from a re-analysis of the deposited data

Results flagged for a closer look

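In 24 of 192 groups of 4 to 7 libraries, for the 32 genes described in full, the highest or lowest library stood apart from the rest by Dixon's criterion. Chance meets it in about 1 in 20 groups of independent, normally distributed values. The criterion was applied to TPM without a log, and the genes share libraries, so 24 of 192 cannot be compared with that rate. CHOW replicate 3 at 8 weeks was highest for the 4 neutrophil attractants, with 2356 TPM of Cxcl1 (next 767 TPM), 4010 TPM of Cxcl2 (next 1201 TPM), 67.5 TPM of Cxcl3 (next 18 TPM) and 129 TPM of Cxcl5 (next 6.88 TPM). CHOW replicate 4 at 34 weeks was highest for Ccl17 (21.4 TPM), Ccl19 (15.4 TPM), Cxcl1 (1737 TPM), Cxcl14 (67.5 TPM) and Cxcl16 (209 TPM). HFD replicate 3 at 20 weeks was highest for Ccl12 (48.8 TPM), Ccl6 (1307 TPM), Ccl8 (415 TPM) and Ccl9 (746 TPM).

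CHOW replicate 2 at 20 weeks was highest for Cxcl13 (248 TPM, next 45.2 TPM) and Cxcl14 (20.4 TPM), and HFD replicate 4 at 34 weeks for Ccl8 (1106 TPM) and Cxcl10 (135 TPM). Single genes stood apart in CHOW replicate 1 at 20 weeks (Ccr3, 30.8 TPM), CHOW replicate 6 at 34 weeks (Ccl27a, 35.6 TPM), HFD replicate 5 at 8 weeks (Ccr8, 7.89 TPM), HFD replicate 2 at 34 weeks (Ccl24, 65.3 TPM) and HFD replicate 4 at 20 weeks (Ccl26, 1.73 TPM where the others were listed at 0). The lowest libraries that stood apart were HFD replicate 1 at 34 weeks for Ccl2 (292 TPM) and HFD replicate 3 at 8 weeks for Ccl6 (509 TPM).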

How the results depend on the processing

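Of 45 calls on single genes, 8 were made under every alternative and with each library left out, namely HFD against CHOW at 20 weeks for Ccr1, Ccr2, Ccl7, Ccl8, Ccl12, Ccl17 and Ccl24, and 20 against 8 weeks on HFD for Ccr2. With sample quality weights the genes called numbered 1, 29 and 6 for HFD against CHOW at 8, 20 and 34 weeks, 18 for 20 against 8 weeks on CHOW and 5 for the interaction. Over all genes tested those weights raised the calls as well, from 4, 2405 and 34 to 209, 5092 and 294 for diet. The calls over all genes went from 103 to 1659 for time on CHOW and from 50 to 400 for the interaction. With the adipocyte score as a covariate they numbered 8 for HFD against CHOW at 20 weeks, 0 and 1 for 20 against 8 weeks on CHOW and HFD, and 1 for the interaction. That covariate turned the sign of Cxcl5 on CHOW (-0.020) and of Ackr2 (0.18), Ccl17 (0.12) and Ackr4 (0.10) on HFD, all from 8 to 20 weeks. Summing Ccl21a and Ccl21b gave -0.12 in place of 0.17 on HFD. The interaction was called for 2 genes with quantile normalization and 1 each with median-ratio scaling and with rescaling without erythroid, germ cell and seminal vesicle genes. Over all genes tested it was called for 104, 85 and 61 under these settings. The cause of these shifts was not tested. Leaving out each library gave 0 to 0 genes at 8 weeks, 10 to 18 at 20 weeks, 0 to 1 at 34 weeks, 5 to 10 and 16 to 21 for time on CHOW and HFD, and 0 to 2 for the interaction. The replicate numbers were not taken to pair the libraries, since the labels do not name the animals. Of 34 same-numbered pairs 16 correlated above 0.1, the highest at 0.404. Every pair of CHOW at 8 weeks with HFD at 20 weeks did so (0.101 to 0.167). In 27 of 68 matches of a library with another group its own number was best, a hint from the data only. With the replicate numbers as a block 0, 20 and 0 genes were called for diet at 8, 20 and 34 weeks, 7 and 23 for time on CHOW and HFD, and 0 for the interaction. Over all genes tested these counts were 17, 3597 and 0, then 71 and 1966, and 32. TPM gives no depth, so the precision of low genes is unknown.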

Other observations

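The remaining axes were low and were called in no comparison. Fractalkine (Cx3cl1), made by endothelial and stromal cells, had group means from 5.32 to 9.99 TPM, and its receptor Cx3cr1, a marker of patrolling monocytes and some macrophages, from 1.35 to 3.87 TPM. From 8 to 20 weeks on HFD Cx3cr1 had a log2 fold change of -0.97 (95% interval -1.61 to -0.33, limma adjusted p = 0.054). The T cell receptors Cxcr3 and Cxcr6 had group means from 3.58 to 6.26 TPM and from 2.58 to 8.61 TPM. Xcl1, made by NK and T cells, had 6.15 to 11.7 TPM, and its receptor Xcr1, found on cross-presenting dendritic cells, had 0.647 to 1.27 TPM.

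Ackr1, the atypical receptor of venules and red cells, had group means from 22 to 35.9 TPM at 8 and 20 weeks, and 8.92 and 11.4 TPM on CHOW and HFD at 34 weeks in the separate table. Its log2 fold change on HFD against CHOW at 20 weeks was -0.44 (95% interval -1.11 to 0.23). Ackr1 overlaps Cadm3 on the same strand.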
